A study of Mus musculus with 9 samples.

Results

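The BCL2 family was followed across 3 mouse leukaemia lines through 10 of its genes, chosen by name and found among the 50686 genes counted. They are the anti-apoptotic Bcl2, Bcl2l1 and Mcl1, the effectors Bax and Bak1, and the BH3-only genes Bcl2l11, Bid, Bad, Bbc3 and Pmaip1. All 10 passed the filter on low counts, and 13852 genes in all were tested. RNA-seq had been made from bone marrow cells of C57BL/6N background transformed with BCR/ABLp185, the fusion kinase of Philadelphia-chromosome-positive acute lymphoblastic leukaemia, which activates the transcription factors STAT5A and STAT5B. The lines compared were wt, Stat5a-/- and Stat5b-/-, all carrying the oncogene and untreated, and each was 1 line sequenced as 3 technical replicates. The p-values therefore compare 3 single lines and measure only technical spread, so that genotype and any other difference between the lines cannot be told apart.

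BCL2 proteins set the threshold of the mitochondrial pathway of apoptosis. Anti-apoptotic members hold the effectors BAX and BAK in check, BH3-only members are induced or activated by stress and neutralise the anti-apoptotic members or activate the effectors directly, and freed effectors open the outer mitochondrial membrane. Cytochrome c then leaves the mitochondria and starts the caspase cascade. In lymphoid cells, cytokine signalling through STAT5 is known for sustaining the anti-apoptotic side of this balance, with Bcl2, Bcl2l1 and Mcl1 among its described target genes.

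The 9 libraries held between 11948136 and 19016396 counted reads. Levels are given as normalized CPM, read counts scaled to library size with TMM and expressed as CPM. The Stat5a-/- line kept Stat5a reads at 12.4 ± 1.02 normalized CPM (SD, n = 3) against 43.2 ± 6.35 in wt, and the Stat5b-/- line kept Stat5b reads at 63.4 ± 7.72 against 105.5 ± 1.96. Both differences from wt had the direction of the genotype label (edgeR, adjusted p = 4.69e-07 and 1.69e-04), although 1 descriptive label of these knockout samples says wt. The other gene of the pair was higher than in wt in each knockout line, Stat5a by 1.94-fold in Stat5b-/- and Stat5b by 1.34-fold in Stat5a-/- (edgeR adjusted p = 5.95e-05 and 0.00942). The labels name the cells only as transformed bone marrow. B-lineage markers were abundant in all lines, with the summed level of 10 markers from 5095 to 5312 normalized CPM in wt, 6637 to 7303 in Stat5a-/- and 6053 to 6875 in Stat5b-/-, but Rag1, a recombinase gene of immature lymphocytes, was at 64.7 ± 2.06 in wt, 0.158 ± 0.0786 in Stat5a-/- and 0.667 ± 0.180 in Stat5b-/-. Other genes of this list moved in both directions, as counted further on. Igll1 was at 609 ± 14.6 in wt, 1012 ± 63.0 in Stat5a-/- and 918 ± 37.7 in Stat5b-/-. Il7r was at 374 ± 44.7, 174 ± 20.7 and 278 ± 39.9 in the same order. The sum of 12 T-cell markers lay between 630.2 and 897.8 in wt, 932.8 and 1120 in Stat5a-/-, and 1389 and 2063 in Stat5b-/-. Markers of myeloid, NK and erythroid cells summed to at most 22.2, 80.0 and 1.33 normalized CPM.

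Promoter windows from 250 bases before to 50 bases after a start site (RefSeq, GRCm38.p6) were at hand for 9 of the 10 members, 15 windows in all, with none for Pmaip1. They were searched for 3 short motifs, on both strands. The STAT motif TTCNNNGAA was in 0 of the 15 windows, against 8.3% of all 32851 windows. The core of the interferon-stimulated response element, 2 blocks of GAAA or of TTTC that lie 2 bases apart, was likewise in 0 of 15, against 3.44%. The FOXO motif TGTTTAC, or GTAAACA on the other strand, was in 2 of 15 windows, against 3.65%. FOXO factors are known activators of BH3-only genes, and the 2 windows with a match belonged to such genes, Bcl2l11 and Bbc3. They are shown as the only 2 of the 15 windows with a match of any of the 3 motifs. The Bcl2l11 window is chr2:128125788-128126087 and the Bbc3 window is chr7:16310011-16310310, both on the plus strand, with the matched letters in capitals beginning 227 and 167 bases before the start site.
Bcl2l11: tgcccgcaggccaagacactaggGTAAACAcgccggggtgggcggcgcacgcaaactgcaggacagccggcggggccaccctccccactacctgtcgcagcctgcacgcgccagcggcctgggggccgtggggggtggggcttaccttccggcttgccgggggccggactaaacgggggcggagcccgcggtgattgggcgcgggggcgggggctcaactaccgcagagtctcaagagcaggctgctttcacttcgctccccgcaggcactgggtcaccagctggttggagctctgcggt
Bbc3: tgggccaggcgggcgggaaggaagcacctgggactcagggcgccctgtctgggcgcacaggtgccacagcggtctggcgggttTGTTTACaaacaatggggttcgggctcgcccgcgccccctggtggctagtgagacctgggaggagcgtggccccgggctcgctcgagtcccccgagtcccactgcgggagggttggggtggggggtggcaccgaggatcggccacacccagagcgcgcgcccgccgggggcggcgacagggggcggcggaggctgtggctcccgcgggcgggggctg
A match of these letters is a description of the sequence and does not show binding.

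To set the members side by side, levels were divided by the length of the gene model (normalized CPM per kb). In wt, Bak1, which encodes the effector BAK, stood first at 114.6 ± 14.5 (SD, n = 3), with no overlap with the libraries of the next gene. Mcl1, a short-lived guardian of lymphocyte survival, was second at 37.2 ± 3.14. Bcl2l1, which encodes BCL-XL, at 27.4 ± 2.91, the effector gene Bax at 25.1 ± 2.95 and Bid at 21.9 ± 1.15 followed, with the ranges of neighbours overlapping. The next 2 were Bad at 9.26 ± 1.36 and Bcl2l11 at 8.63 ± 0.382, which overlapped each other. Bcl2, the founding member, at 4.728 ± 0.4997, and Bbc3 at 4.69 ± 0.596 also overlapped, and Pmaip1 was last at 0.267 ± 0.153. Thus Bcl2 was the lowest of the 3 anti-apoptotic genes in wt and Mcl1 the highest, and the same order held in both knockout lines. The order changed in 1 place only, Bcl2l11 standing before Bad in Stat5a-/- (13.4 ± 0.899 against 12.03 ± 1.10, ranges overlapping) and in Stat5b-/- (12.7 ± 0.644 against 9.15 ± 0.910, ranges apart). Comparisons between genes carry a counting limit, since reads in exons shared with another gene are not assigned. Such shared exons made up 6.09% of the Bcl2 model, 12.2% of Bax, 14.8% of Bak1, 17.7% of Bid and 25.8% of Bad.

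**Figure D1:**
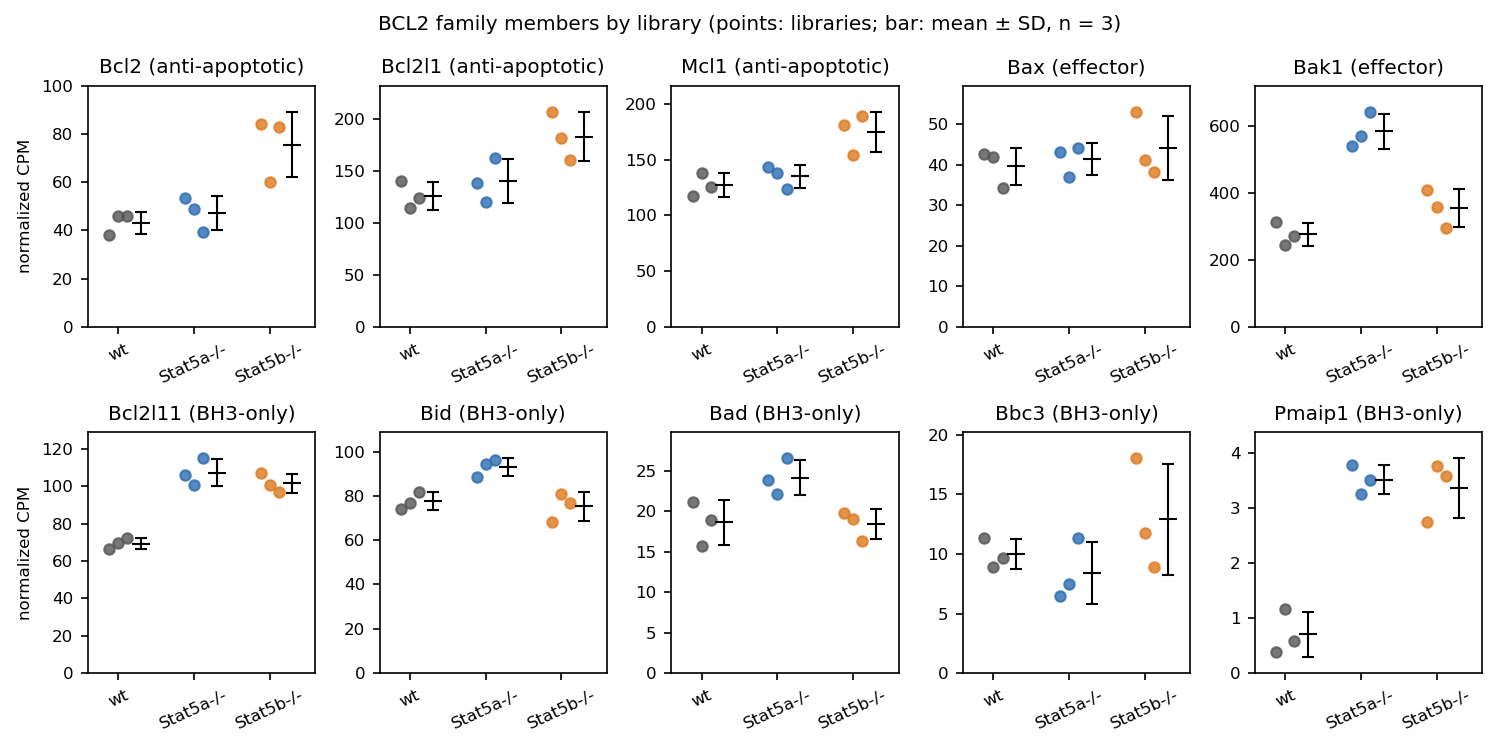
Normalized CPM (vertical axis, from 0) of the 10 members in the 3 lines; each point is a library and the bar beside it the mean ± SD of 3 libraries. The 3 anti-apoptotic genes are highest in Stat5b-/-, Bak1 is highest in Stat5a-/-, and Bcl2l11 and Pmaip1 are higher in both knockout lines than in wt.

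In Stat5b-/- against wt, all 3 anti-apoptotic genes were higher, Bcl2 by 1.75-fold, Bcl2l1 by 1.45-fold and Mcl1 by 1.38-fold. The BH3-only genes Bcl2l11 and Pmaip1 and the effector Bak1 were also higher, so that 6 of the 10 members rose and 0 fell by edgeR's quasi-likelihood test at an adjusted p under 0.05. By the same test 24.2% of all genes tested were called higher and 22% lower, 46.2% in either direction. Only Pmaip1 also passed a fold change of 2, against 19.1% of all genes. The median log2 fold change of the members was 0.42, and that of all genes tested 0.023.

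Bcl2 (chr1:106538178-106714274, GRCm38), whose product is the archetypal guard of the mitochondrial membrane, measured 38.0, 46.0 and 45.9 normalized CPM in the wt libraries 1, 2 and 3. The Stat5b-/- libraries gave 84.3, 60.1 and 83.0. The groups did not overlap, although replicate 2 of Stat5b-/- stood well below the other two. The log2 fold change was 0.81 ± 0.15 (SE, edgeR adjusted p = 7.49e-04).

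Bcl2l1 (chr2:152780668-152831728) was at 140, 114 and 124 normalized CPM in wt and at 206, 182 and 160 in Stat5b-/-. Again the groups did not overlap, with a log2 fold change of 0.54 ± 0.13 (SE, edgeR adjusted p = 0.005). Mcl1 (chr3:95658788-95663176) was at 117, 138 and 125 in wt and at 181, 154 and 189 in Stat5b-/-. Its groups were apart too, with the smallest log2 fold change of the anti-apoptotic genes, 0.46 ± 0.11 (SE, edgeR adjusted p = 0.00377).

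The T-cell markers moved with this comparison: 12 of 12 were higher in Stat5b-/- than in wt, each by more than 2-fold, with none of them at 0. Of the tested markers, 3 of 4 for NK cells were also higher and 1 lower, 2 of 3 for myeloid cells were higher and 0 lower, and 5 of 10 for the B lineage were higher and 3 lower, at the summed levels given above. The 1 tested erythroid marker, Klf1, was lower (-1.81, edgeR adjusted p = 0.016), with at most 18 reads in a wt library. Cd3e, a chain of the T-cell receptor complex, was at 153 ± 24.5 normalized CPM in wt, 218 ± 20.7 in Stat5a-/- and 336 ± 61.9 in Stat5b-/-. In each line, the library with the lowest T-cell marker sum (replicate 1 of wt with 630.2, replicate 3 of Stat5a-/- with 932.8, replicate 2 of Stat5b-/- with 1389) also had the lowest Bcl2 and the lowest Mcl1. Bcl2l1 followed this order in none of the lines and Bcl2l11 in wt only. Replicate 1 of wt and replicate 3 of Stat5a-/- were also the libraries most tilted to GC-rich genes in their lines. Their deviations from the line correlated with gene GC content by 0.467 and 0.525. In Stat5b-/- the most tilted was replicate 1 (0.319), with replicate 2 at 0.158. GC content was 46.3% for Bcl2, 48.7% for Mcl1, 48.0% for Bcl2l11 and 55.9% for Bcl2l1, and its part in this order was not tested. A fit that also held the T-cell marker sum was added once the data had been seen. With this covariate, 0 of the 10 members passed in Stat5b-/- against wt, while the share of all genes called in either direction fell from 46.2% to 15.1%, so that calls were lost among all genes too. The log2 fold change of Bcl2 then turned to -0.21 ± 0.24 (SE, edgeR adjusted p = 0.617) and that of Mcl1 to -0.12 ± 0.21 (adjusted p = 0.736). Bcl2l1 stood at 0.92 ± 0.33 (adjusted p = 0.0879), Bcl2l11 at 0.52 ± 0.23 (adjusted p = 0.159) and Pmaip1 at 2.02 ± 0.75 (adjusted p = 0.0968), with the direction kept and the errors more than doubled. The ranges of the covariate did not overlap between the lines. In these bulk libraries a different share of cells of a type and a different RNA level per cell cannot be told apart.

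**Figure D2:**
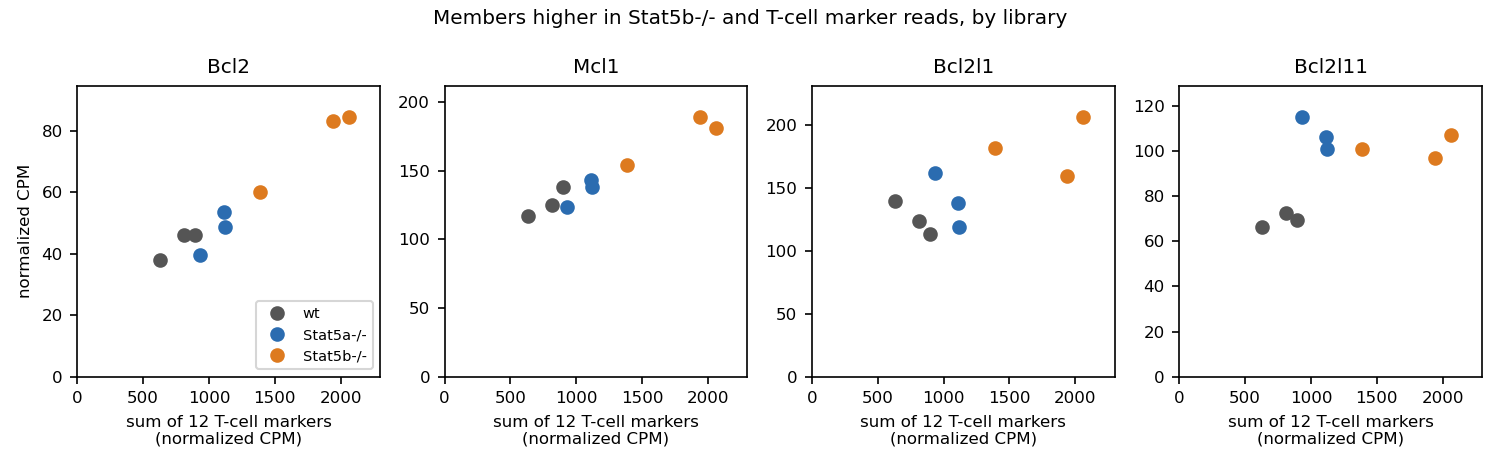
Normalized CPM of Bcl2, Mcl1, Bcl2l1 and Bcl2l11 (vertical axes, from 0) against the summed normalized CPM of 12 T-cell markers (horizontal axes) in the 9 libraries, coloured by line. Bcl2 and Mcl1 are lowest within each line in the library with the fewest T-cell marker reads, which is replicate 2 at 1389 in Stat5b-/-; the wt libraries of Bcl2l11, at 66.2 to 72.3, lie below all others.

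Among the pro-apoptotic genes, Bcl2l11, which encodes the BH3-only protein BIM, an inducer of lymphocyte death, was at 66.2, 69.5 and 72.3 normalized CPM in wt. It was at 107, 101 and 97.0 in Stat5b-/-. The groups lay far apart relative to their spread, with a log2 fold change of 0.55 ± 0.094 (SE, edgeR adjusted p = 3.6e-04). Pmaip1, which encodes NOXA, an antagonist of MCL1, was counted in 6, 23 and 10 reads in wt and in 40, 55 and 47 reads in Stat5b-/-. These were 0.381, 1.16 and 0.578 against 2.74, 3.76 and 3.58 normalized CPM, a log2 fold change of 2.19 ± 0.31 (SE, edgeR adjusted p = 8.78e-05). The gene was thus higher in every Stat5b-/- library than in any of wt, from the lowest reads of the 10 members.

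Bak1 (chr17:27019810-27029009) was at 313, 243 and 272 normalized CPM in wt and at 410, 359 and 295 in Stat5b-/-. The groups overlapped, replicate 3 of Stat5b-/- lying below replicate 1 of wt, and the log2 fold change of 0.36 ± 0.13 (SE) passed narrowly (edgeR adjusted p = 0.0415). That call was lost when replicate 2 or 3 of wt, replicate 1 or 2 of Stat5a-/-, or replicate 1 or 2 of Stat5b-/- was left out, with log2 fold changes from 0.22 to 0.35 and adjusted p from 0.0713 to 0.225. It was lost as well with DESeq2, RLE scaling and only the 2 lines in the fit (0.33 to 0.34, adjusted p from 0.0631 to 0.0792). With the T-cell marker covariate the call was lost at a larger log2 fold change of 0.75. The increase of Bak1 passed in 6 of 17 alternatives.

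The other 4 members did not pass in Stat5b-/- against wt. For Bax the log2 fold change was 0.16 with a 95% interval from -0.15 to 0.46. For Bid, whose protein links death receptors to mitochondria, it was -0.045 (-0.26 to 0.17), and for Bad, whose protein is held inactive by survival kinases, -0.013 (-0.31 to 0.29). Bbc3, which encodes the p53 target PUMA, was at 11.4, 8.89 and 9.64 normalized CPM in wt and at 18.03, 11.8 and 8.91 in Stat5b-/-. A single library thus carried its mean, and the log2 fold change of 0.38 had an interval from -0.16 to 0.92 (edgeR adjusted p = 0.233). Bbc3 is the most GC-rich of the members at 65.2% of its model, and with an offset for GC content its difference passed (0.52 ± 0.14, adjusted p = 0.00622). The deviations of single libraries from their line correlated with gene GC content by up to 0.525 in size.

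In Stat5a-/- against wt, the 3 anti-apoptotic genes did not pass, while Bak1, Bcl2l11, Bad and Pmaip1, all pro-apoptotic, were higher. Bak1 rose by 2.12-fold, the largest change among the members with more than 100 normalized CPM. Together 4 of the 10 members rose and 0 fell, where 19.8% of all genes were called higher and 16.3% lower, 36% in either direction. Bak1 and Pmaip1 also passed the fold change of 2, against 14.2% of all genes. The members' median log2 fold change was 0.21, and that of all genes tested 0.0099. This comparison shares its wt libraries with the one before. Cell-type markers moved here too. Of the T-cell markers 5 of 12 were higher and 0 lower, and of the B-lineage markers 6 of 10 were higher and 2 lower. The tested NK and myeloid markers, 4 and 3, had 0 higher and 1 lower each.

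Bak1 was at 540, 571 and 643 normalized CPM in Stat5a-/-, so that its lowest library stood above the highest of both other lines. The log2 fold change against wt was 1.08 ± 0.14 (SE, edgeR adjusted p = 3.04e-05), and it passed under all 17 alternative settings. Over the 9 libraries, the genes whose log2 level followed that of Bak1 most closely were Eng (Pearson r = 0.994), Chst12 (0.993), Ssbp3 (0.992), Csf2ra (0.991) and Cish (0.990). Bak1 was taken for this search as the member with the smallest p of the test over the 3 lines, and the correlations mostly reflect the line means, with no test attached.

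Bcl2l11 was at 106, 101 and 115 normalized CPM in Stat5a-/-, with no library near those of wt. The log2 fold change was 0.63 ± 0.094 (SE, edgeR adjusted p = 1.52e-04). Pmaip1 was at 3.78, 3.25 and 3.52, from 54, 40 and 39 reads. It stood apart from wt by a log2 fold change of 2.26 ± 0.32 (SE, edgeR adjusted p = 8.54e-05), close to its change in Stat5b-/-. Bad was at 21.1, 15.7 and 18.9 in wt and at 23.8, 22.1 and 26.5 in Stat5a-/-. Its groups did not overlap, but the log2 fold change of 0.38 ± 0.14 (SE) was just past the threshold (edgeR adjusted p = 0.0478). The call for Bad was lost without replicate 2 or 3 of wt, any 1 library of Stat5a-/-, or replicate 1 or 2 of Stat5b-/-, with values from 0.27 to 0.42 and adjusted p from 0.0621 to 0.196. It was also lost with DESeq2, RLE scaling, no filter and only the 2 lines in the fit (0.36 to 0.37, adjusted p from 0.056 to 0.0824) and with the GC offset (0.20, adjusted p = 0.104), so that Bad passed in 3 of 17 alternatives.

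Bid, at 73.9, 76.9 and 82.0 normalized CPM in wt and 88.5, 94.2 and 96.2 in Stat5a-/-, had no overlap between groups and missed the threshold (0.26 ± 0.098, SE, edgeR adjusted p = 0.0541). The anti-apoptotic genes changed in Stat5a-/- by log2 values of 0.13 (95% interval -0.20 to 0.46) for Bcl2, 0.15 (-0.14 to 0.44) for Bcl2l1 and 0.089 (-0.15 to 0.33) for Mcl1. The values measured in Stat5b-/- lie above these intervals for all 3 genes. Their own 95% intervals overlap them for Bcl2l1 (0.25 to 0.83) and Mcl1 (0.23 to 0.70). The direct comparison of the knockout lines is given further on. Bax stood at 0.066 (-0.24 to 0.37) and Bbc3 at -0.25 (-0.81 to 0.31). With the GC offset, Bbc3 was called lower in Stat5a-/- (-0.41 ± 0.15, SE, edgeR adjusted p = 0.0366).

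**Figure D3:**
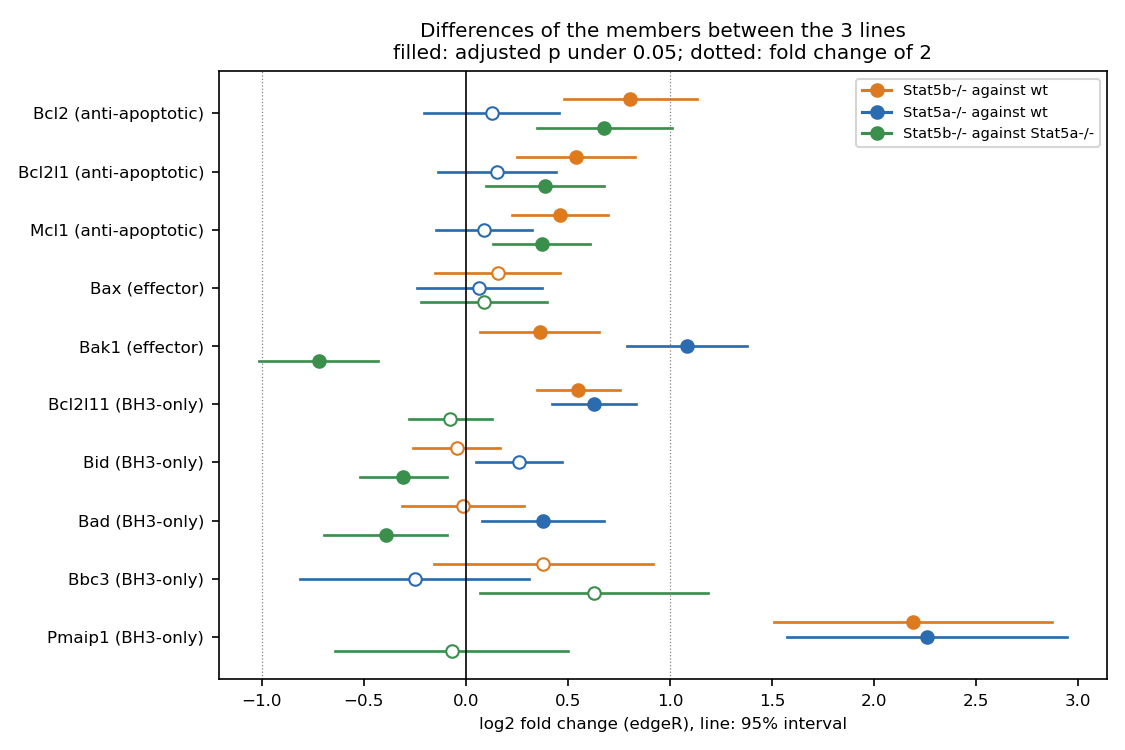
Log2 fold changes (horizontal axis) of the 10 members in the 3 comparisons with their 95% intervals; filled points passed an adjusted p of 0.05 and dotted lines mark a fold change of 2. The anti-apoptotic genes are filled in the comparisons with Stat5b-/- and open in Stat5a-/- against wt, where Bak1 reaches 1.08 and Pmaip1 2.26.

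Chromosomal position moved with the Stat5a-/- values. In this line, chromosomes 17, 18 and 19 had median log2 fold changes against wt from 0.41 to 0.53, where the medians of the other 17 chromosomes ran from -0.096 to 0.095. Of the 4 members that rose in Stat5a-/-, 3 lie there. Of all tested genes on chromosomes 17, 18 and 19, 56.1%, 54.6% and 47.6% were called higher in this comparison. Bad on chromosome 19 (0.38) was at the median of its chromosome (0.41), Bak1 on chromosome 17 (1.08) was above its own (0.53) and above the median of 89 tested genes within 2 Mb (0.64), and Pmaip1 on chromosome 18 (2.26) was far above its own (0.43). Bcl2l11 on chromosome 2 rose by 0.63 where the chromosome's median was -0.057. In Stat5b-/- against wt the same 3 chromosomes had medians from -0.042 to 0.14, so that Pmaip1 rose there with no shift of its chromosome. The part of the chromosomal shift in the values of Bak1, Pmaip1 and Bad was not tested.

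**Figure D4:**
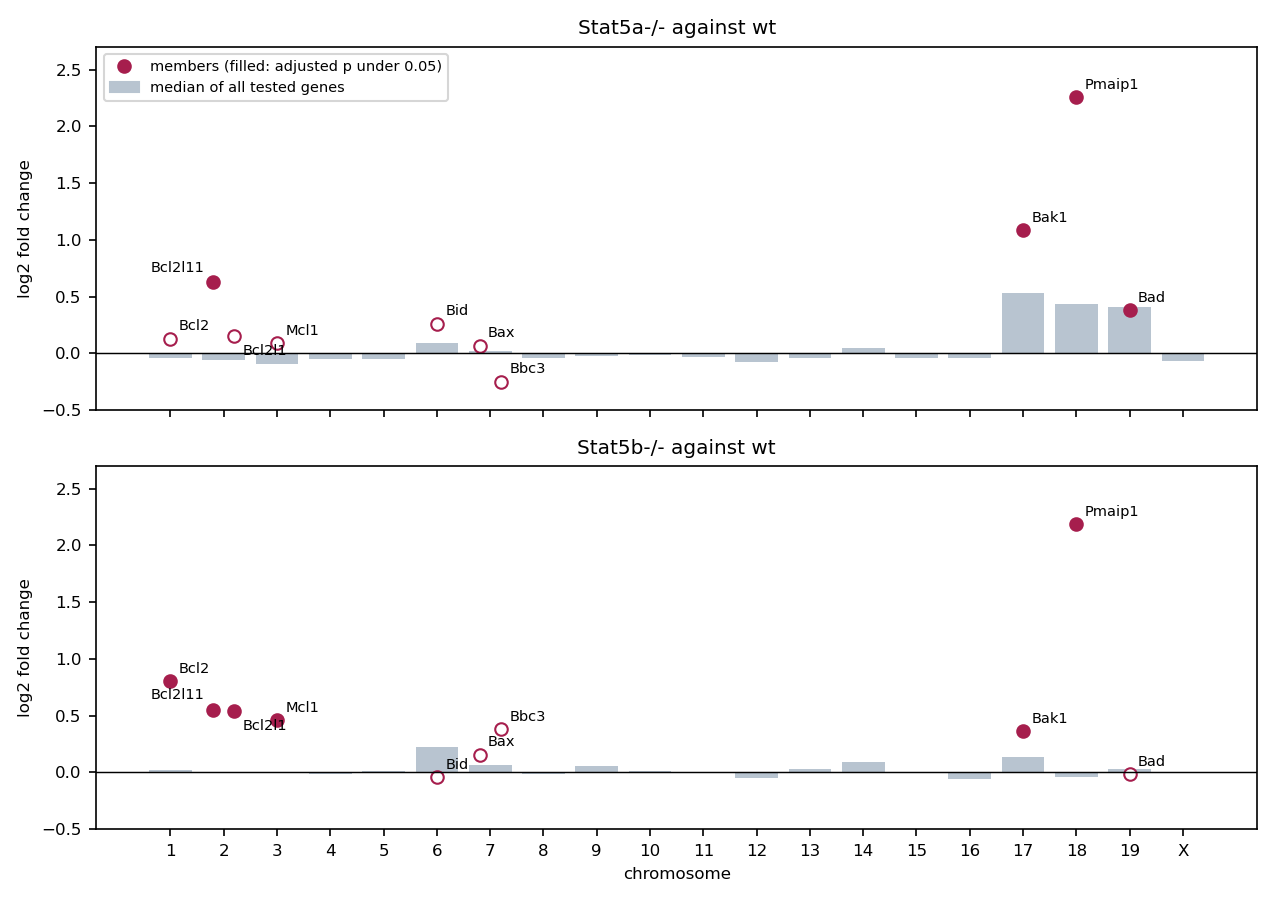
Log2 fold change against wt (vertical axis) of each member (points, filled where the adjusted p was under 0.05) over the median of all tested genes of each chromosome (bars), for Stat5a-/- above and Stat5b-/- below. In Stat5a-/- the bars of chromosomes 17, 18 and 19 stand at 0.41 to 0.53, with Bad at the height of its bar and Bak1 and Pmaip1 above theirs.

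The knockout lines were also compared directly. In Stat5b-/- against Stat5a-/-, all 3 anti-apoptotic genes were higher and Bak1, Bid and Bad were lower, with 0 of the 10 members past a fold change of 2. Thus 3 members were called higher, against 16.4% of all genes, and 3 lower, against 17.5%. In either direction 33.9% of all genes were called, and 11.4% with a fold change over 2. The members' median log2 difference was 0.010, and that of all genes 0.020.

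Bcl2 was at 53.6, 48.7 and 39.5 normalized CPM in Stat5a-/-, below every Stat5b-/- library, with a log2 difference of 0.68 ± 0.15 (SE, edgeR adjusted p = 0.00414). Mcl1, at 143, 138 and 124 in Stat5a-/-, did not overlap with Stat5b-/- either (0.37 ± 0.11, SE, adjusted p = 0.019). Bcl2l1, at 138, 119 and 162, overlapped with it and passed narrowly (0.39 ± 0.13, SE, adjusted p = 0.0403). The call for Mcl1 was lost without replicate 3 of Stat5a-/- (0.32, adjusted p = 0.0597) or replicate 3 of Stat5b-/- (0.31, adjusted p = 0.0593). That for Bcl2l1 was lost without replicate 3 of wt, replicate 1 or 2 of Stat5a-/-, or replicate 1 or 2 of Stat5b-/- (0.28 to 0.39, adjusted p from 0.0623 to 0.187). It was also lost with DESeq2, RLE scaling and only the 2 lines in the fit (0.37 to 0.39, adjusted p from 0.0508 to 0.0572). Of 17 alternatives, Mcl1 passed in 13 and Bcl2l1 in 7. The T-cell markers moved here as well, with 11 of 12 higher in Stat5b-/-, and with their sum as covariate 0 members passed in either direction, where 13.1% of all genes did. The log2 difference was then smaller for Bcl2 (0.041) and Mcl1 (0.0049) and larger for Bcl2l1 (0.63).

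Bak1 differed by -0.72 ± 0.13 (SE, edgeR adjusted p = 0.00118), a call that was lost only with the T-cell marker covariate (-0.48, adjusted p = 0.236) among 17 alternatives. Bid, at 68.2, 80.8 and 76.6 normalized CPM in Stat5b-/-, lay below Stat5a-/- in every library (-0.31 ± 0.098, SE, adjusted p = 0.0295). The same was true of Bad, at 19.8, 19.1 and 16.3 (-0.39 ± 0.14, SE, adjusted p = 0.0452). Their calls rested on single libraries. Without replicate 2 or 3 of Stat5a-/-, or without replicate 1 of Stat5b-/-, Bak1 was the 1 member still called lower (Bid from -0.31 to -0.24 with adjusted p from 0.0711 to 0.0889, Bad from -0.46 to -0.31 with adjusted p from 0.0512 to 0.147). The call for Bad was also lost without replicate 3 of wt, replicate 1 of Stat5a-/-, or replicate 2 or 3 of Stat5b-/- (-0.42 to -0.31, adjusted p from 0.0677 to 0.139). Of 17 alternatives, Bid passed in 10 and Bad in 5. The medians of chromosomes 17, 18 and 19 were from -0.48 to -0.42 in this comparison, beside which Bad was near the median of chromosome 19 (-0.43), Bak1 below that of chromosome 17 (-0.42), and Bid, on chromosome 6, below a median of 0.11.

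Bcl2l11 and Pmaip1 did not differ detectably between the knockout lines, with log2 differences of -0.077 (95% interval -0.28 to 0.13) and -0.069 (-0.64 to 0.50). Bax, at 42.7, 41.8 and 34.2 normalized CPM in wt, 43.2, 36.9 and 44.2 in Stat5a-/- and 53.1, 41.1 and 38.1 in Stat5b-/-, did not pass in any of the 3 comparisons. With the GC offset, Bax was called higher in Stat5b-/- than in Stat5a-/- (0.36 ± 0.13, SE, edgeR adjusted p = 0.0314). Bbc3, at 6.43, 7.49 and 11.4 in Stat5a-/-, missed the threshold against Stat5b-/- (0.63 ± 0.26, SE, edgeR adjusted p = 0.0776). It passed without replicate 3 of Stat5a-/- (0.91, adjusted p = 0.019), without replicate 3 of Stat5b-/- (0.84, adjusted p = 0.018) and with the GC offset (0.92, adjusted p = 1.53e-04).

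Summed by class per kb of gene model, the members gave a description of the balance with no test attached. The ratio of the 5 BH3-only genes to the 3 anti-apoptotic genes was 0.653, 0.608 and 0.675 in wt, 0.700, 0.763 and 0.808 in Stat5a-/-, and 0.484, 0.567 and 0.477 in Stat5b-/-. No ranges overlapped, Stat5a-/- standing above wt and Stat5b-/- below it. Bid was the largest BH3-only part in each line. In Stat5b-/- the BH3-only sum itself lay above wt, at 47.3 to 51.9 against 42.8 to 46.3 per kb. The anti-apoptotic sum was 91.3 to 107.3 against 68.6 to 70.3. Limits given above for Bcl2 and Mcl1 (T-cell marker covariate) and for Bad (chromosome 19, shared exons) apply to these sums too. The ratio of the effectors Bax and Bak1 to the anti-apoptotic genes, carried mostly by Bak1, was 2.28, 1.81 and 1.97 in wt, 3.24, 3.63 and 3.89 in Stat5a-/-, and 1.90, 1.92 and 1.48 in Stat5b-/-. Here Stat5a-/- stood apart and the other two lines overlapped. These are ratios of RNA levels, and the activity of BCL2 proteins also depends on their phosphorylation, cleavage and turnover, which RNA-seq does not measure.

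Around the members, 51 genes of the same pathway were followed in 6 lists, of which 43 could be tested. Those left untested were Bcl2a1a, Bcl2a1b, Bcl2a1d, Bcl2l10, Bik, Hrk and Bcl2l14 of the family itself and the p53 relative Trp73, none with more than 15 reads in any library. In Stat5b-/- against wt, 14 of the 43 were higher and 8 lower, 7 of them past a fold change of 2. In Stat5a-/- against wt 5 were higher and 7 lower, 4 past that fold change, and in Stat5b-/- against Stat5a-/- 16 were higher and 3 lower, with 3 past it. The last comparison's 19 calls became 12 without replicate 1 and 10 without replicate 2 of Stat5a-/-, where 27.4% and 26.1% of all genes were called. With all libraries, the shares of all genes in either direction, given above with each comparison, were 46.2%, 36% and 33.9%. With the T-cell marker sum as covariate, 4 of the 43 passed in Stat5b-/- against wt and 6 in Stat5b-/- against Stat5a-/-, beside 15.1% and 13.1% of all genes in that fit.

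Of the other BCL2 family genes, 3 were higher and 1 lower in Stat5b-/- against wt among 6 tested. The shares of all genes were 24.2% higher and 22% lower. Bok, a BAX-like effector gene, was at 10.1, 6.26 and 9.01 normalized CPM in wt, 20.4, 18.5 and 26.4 in Stat5a-/- and 39.9, 36.5 and 28.9 in Stat5b-/-. No library of 1 line overlapped with those of another, and the log2 fold change was 2.06 ± 0.19 in Stat5b-/- and 1.37 ± 0.20 in Stat5a-/- (SE, edgeR adjusted p = 1.98e-06 and 1.06e-04). Bcl2l15 rose from 0.265 ± 0.0206 normalized CPM (SD, n = 3) in wt to 1.08 ± 0.159 in Stat5a-/- and 0.619 ± 0.184 in Stat5b-/-, with at most 18 reads in a library. Bcl2l12 was higher in Stat5b-/- than in wt and in Stat5a-/- (0.60 and 0.51, edgeR adjusted p = 0.00833 and 0.0284), and Bcl2l13, a mitochondrial relative that shares exons with Bid, was lower than wt in Stat5a-/- (-0.28, adjusted p = 0.0232) and in Stat5b-/- (-0.27, adjusted p = 0.0246).

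Downstream, the apoptosome and caspase list had 3 genes higher and 2 lower of 8 in Stat5b-/- against wt, and 0 higher and 1 lower in Stat5a-/-. All genes were called higher and lower by 24.2% and 22% in Stat5b-/-, and by 19.8% and 16.3% in Stat5a-/-. Casp6 fell in both knockout lines, by 0.62 in Stat5b-/- and by 1.02 in Stat5a-/- on the log2 scale (edgeR adjusted p = 0.00545 and 2.6e-04). Cycs, the cytochrome c gene, was lower in Stat5b-/- (-0.92, adjusted p = 0.0148), from a level of only 1.80 normalized CPM in wt. The gene has near-identical processed copies in the genome, and their part in this count was not tested. Among the genes higher in Stat5b-/- than in wt, and named after their values were seen, were Casp9, the initiator caspase of the mitochondrial pathway (0.35, adjusted p = 0.0489), and Apaf1, the scaffold of the apoptosome (0.32, adjusted p = 0.0451). Between the knockout lines, Casp8 (0.55, adjusted p = 0.0204) and Apaf1 (0.48, adjusted p = 0.00901) were higher in Stat5b-/-.

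The inhibitor-of-apoptosis genes and their antagonists had 2 of 6 higher in Stat5b-/- against wt, the caspase inhibitor genes Birc2 (0.55, edgeR adjusted p = 0.0138) and Xiap (0.36, adjusted p = 0.0098). The share of all genes called higher in this comparison was 24.2%. Birc2 and Xiap were also higher than in Stat5a-/- (0.49 and 0.37, edgeR adjusted p = 0.0361 and 0.0123). With the T-cell marker sum as covariate, 0 of the 6 passed in either comparison, beside 15.1% and 13.1% of all genes. In Stat5a-/- against wt, Htra2 (0.53, adjusted p = 0.00526) and Birc6 (0.51, adjusted p = 0.00147) were higher and Diablo, whose product SMAC releases caspases from their inhibitors, was lower (-0.36, adjusted p = 0.0168).

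Death receptor genes had 5 of 7 higher in Stat5b-/- against wt and 0 lower, where 24.2% of all genes were called higher and all 12 T-cell markers were higher too. With the T-cell marker sum as covariate, 1 of the 7 passed. Fas, a death receptor gene, was at 1.33, 2.83 and 1.96 normalized CPM in wt, 2.66, 2.85 and 4.15 in Stat5a-/- and 7.68, 7.65 and 8.76 in Stat5b-/-. It was highest in all Stat5b-/- libraries, by 1.95 ± 0.24 against wt (SE, edgeR adjusted p = 2.76e-05) and by 1.33 against Stat5a-/- (adjusted p = 0.00101). Cflar, whose product FLIP blocks caspase activation at these receptors, rose as well, by 1.05 against wt (adjusted p = 3.88e-05) and by 0.77 against Stat5a-/- (adjusted p = 8.12e-04). Tnfrsf1a, a TNF receptor gene, was higher than wt in both lines (1.27 in Stat5b-/- and 0.81 in Stat5a-/-, adjusted p = 1.41e-04 and 0.00595). The adaptor genes Tradd (0.68, adjusted p = 6.61e-04) and Fadd (0.42, adjusted p = 0.00822), named after their values were seen, made up the 5 in Stat5b-/-. Tnfrsf10b, the TRAIL receptor gene, was lower in Stat5a-/- than in wt (-1.11, adjusted p = 0.00345) and lower than in Stat5b-/-, where it stood higher by 0.79 (adjusted p = 0.0347).

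Among the transcription factors known to act on BCL2 family genes, 0 of 6 tested were higher in either knockout line than in wt, 2 were lower in Stat5b-/- and 3 in Stat5a-/-. Beside these counts, 24.2% of all genes were called higher and 22% lower in Stat5b-/-, and 19.8% and 16.3% in Stat5a-/-. Myc, which sensitises cells to apoptosis, was at 1150, 1059 and 1165 normalized CPM in wt, 720, 723 and 857 in Stat5a-/- and 330, 305 and 247 in Stat5b-/-. Its ranges were apart in all 3 lines, with log2 fold changes against wt of -1.94 ± 0.13 in Stat5b-/- and -0.55 ± 0.12 in Stat5a-/- (SE, edgeR adjusted p = 5.29e-08 and 0.00287) and -1.38 between the knockout lines (adjusted p = 2.26e-06). Ddit3, which encodes the stress factor CHOP, an activator of Bcl2l11, was lower than wt in both (-0.55 and -0.86, adjusted p = 6.39e-04 and 1.93e-05) while Stat5b-/- stood above Stat5a-/- (0.31, adjusted p = 0.0336). Foxo1, of the FOXO class named above, was lower in Stat5a-/- than in wt (-0.48, adjusted p = 8.5e-04) and than in Stat5b-/- (difference 0.60, adjusted p = 2.07e-04).

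Of the 10 genes for partners and turnover of BCL2 proteins, 1 was higher and 3 lower in Stat5b-/- against wt and 0 were called in Stat5a-/-, by edgeR at an adjusted p under 0.05. Over all genes, 24.2% were higher and 22% lower in Stat5b-/-, and 36% were called in either direction in Stat5a-/-. The mitochondrial channel genes Vdac1 and Vdac2, the latter encoding a binding partner of BAK, were both lower in Stat5b-/- (-0.44 each, adjusted p = 0.00221 and 0.00523). The third lower gene, Ywhae (-0.37, adjusted p = 0.00892), encodes a 14-3-3 protein and was named after its value was seen. Fbxw7, part of a ubiquitin ligase that marks MCL1 for degradation, was higher (0.38, adjusted p = 0.0443). Between the knockout lines, Usp9x, a deubiquitinase gene that stabilises MCL1, was higher in Stat5b-/- (0.37, adjusted p = 0.0181), while Dynll2 (-0.38, adjusted p = 0.0246), whose product tethers the BH3-only protein BMF, and Vdac1 (-0.28, adjusted p = 0.0399) were lower.

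**Figure D5:**
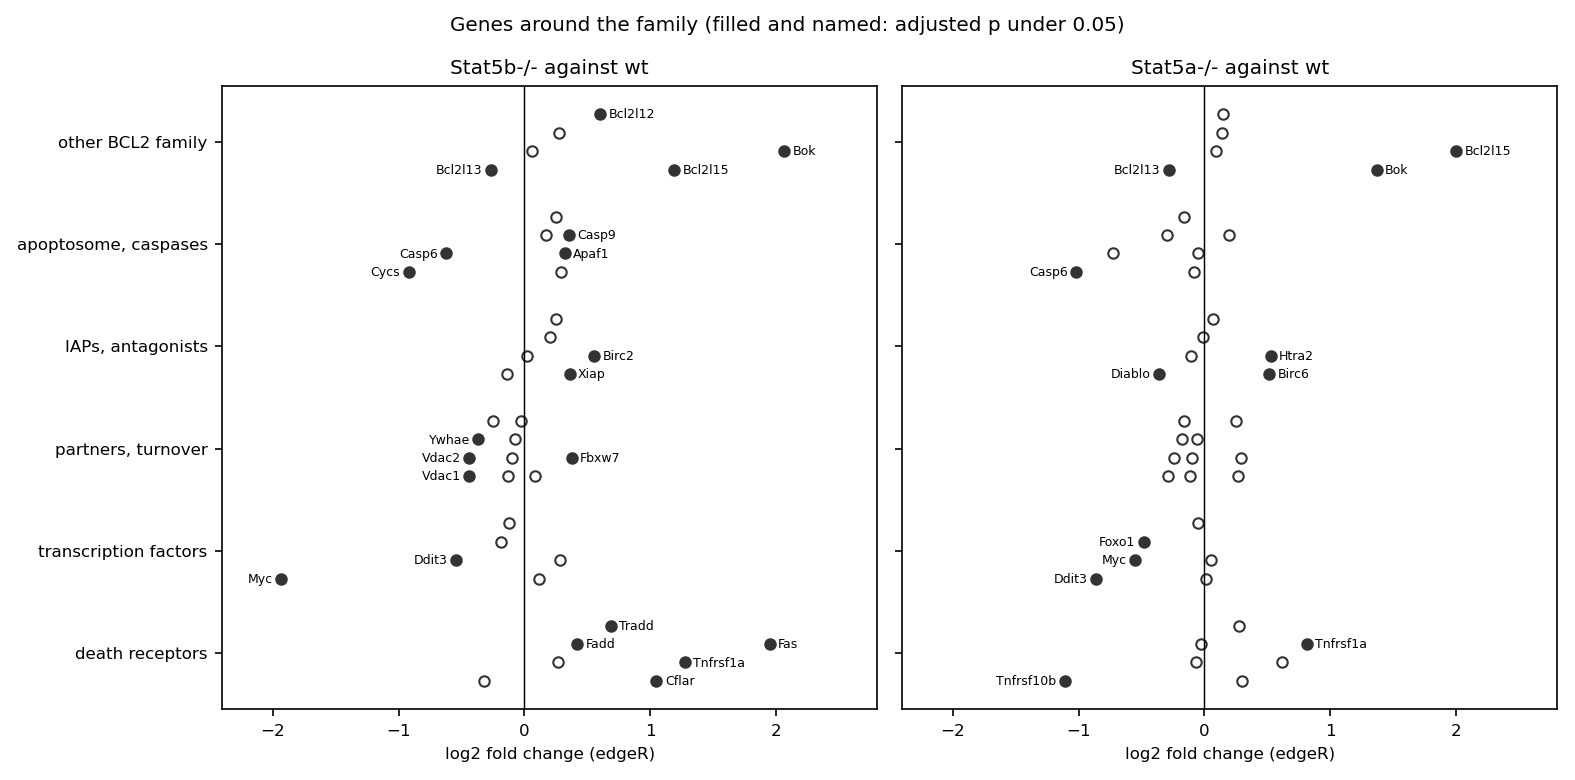
Log2 fold changes (horizontal axes) of tested genes from the 6 pathway lists, for Stat5b-/- against wt on the left and Stat5a-/- against wt on the right; filled and named points passed an adjusted p of 0.05. Death receptor genes lie mostly to the right in Stat5b-/-, with Fas at 1.95, Bok is high in both lines, and Myc is far to the left in Stat5b-/- at -1.94.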

How the data were processed

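mRNA of the wt, Stat5a-/- and Stat5b-/- lines (1 line per genotype, 3 technical replicates each, 9 libraries) was sequenced as 50 bp single-end reads. After trimming, the authors aligned reads with STAR to GENCODE M13 (GRCm38, mm10), and they deposited unnormalized counts per gene from featureCounts 1.5.1, made without a strand setting, so that reads in exons shared by overlapping genes were not assigned to either. Symbols came from GENCODE M21. Groups followed titles and genotype labels. Libraries of a line differed beyond sampling noise (chi-square per degree of freedom from 4.63 to 28), so none was merged. Counts were fitted with edgeR 4.0.16 in R 4.3.3 (TMM, filterByExpr, glmQLFit and glmQLFTest on all 9 libraries, Benjamini-Hochberg over 13852 genes), a procedure tested on simulated data. Standard errors were obtained by dividing the size of the log2 fold change by the root of its F statistic. Alternatives were DESeq2 1.42.0, RLE scaling, no filter, fits of only the 2 lines compared, each library left out, a replicate block, a GC offset (loess, span 0.5), this offset with the block, and the T-cell marker sum as covariate, added after seeing the data. The members and lists were chosen with earlier results of these data known. All members are named, and of each other pathway list up to 3 genes per comparison with the largest change past an adjusted p of 0.05, without 1 gene that is counted in its list but not reported here. Where a count was small, its remaining genes were also named, as said beside them. Since no molecular identifiers were used, reads may repeat a molecule, and at this depth genes of a few reads, such as Pmaip1, are imprecise.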

Additional observations from a re-analysis of the deposited data

How the results depend on the processing

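Over 17 alternatives, the increases of Bak1, Bcl2l11 and Pmaip1 in Stat5a-/- against wt passed in all 17, and those of Bcl2, Bcl2l1, Mcl1, Bcl2l11 and Pmaip1 in Stat5b-/- against wt in 16, the exception being the T-cell marker sum as covariate. With this covariate 0 members were higher and 4 pathway genes passed in Stat5b-/- against wt, and 0 members were higher, 0 lower and 6 pathway genes passed in Stat5b-/- against Stat5a-/-, where the share of all genes called fell from 46.2% to 15.1% and from 33.9% to 13.1%. The log2 fold changes against wt that turned sign with it were, in Stat5b-/-, Bcl2 (-0.21), Mcl1 (-0.12), Bid (0.12) and Bad (0.50) and, in Stat5a-/-, Bcl2 (-0.25) and Mcl1 (-0.13). The cause was not tested. The GC offset gave 1 member lower in Stat5a-/- against wt (Bbc3) and 5 higher in Stat5b-/- against Stat5a-/-, also 5 together with the block, where 44.1%, 43.6% and 38.9% of all genes were called. Without and with the block it turned Bcl2l1 (-0.027 and -0.029) and Bax (-0.0913 and -0.0915) in Stat5a-/- against wt. With no filter, 1 member was lower in Stat5b-/- against Stat5a-/-, where 18.5% of 27545 genes were called.

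Replicate numbers did not pair the libraries, the deviations of same-numbered libraries correlating by -0.0877 on average (from -0.445 to 0.216). With the replicate block, 1 member was higher, 1 lower and 12 pathway genes passed in Stat5b-/- against Stat5a-/-, where 28.1% of all genes were called, and the calls for Bak1 in Stat5b-/- (adjusted p = 0.065) and Bad in Stat5a-/- (adjusted p = 0.0733) against wt were lost.

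Leaving out 1 library at a time gave 1 to 3 members lower and 10 to 21 pathway genes passing in Stat5b-/- against Stat5a-/-, beside 26.1% to 33.9% of all genes, the pathway genes lowest without replicate 1 (12) or 2 (10) of Stat5a-/-. Log2 values of members that had not passed changed sign for Bad (-0.13 to 0.084) and Bax (-0.026 to 0.25) in Stat5b-/- against wt, Bax (-0.031 to 0.13) in Stat5a-/- against wt, and Bax (-0.072 to 0.19) and Pmaip1 (-0.16 to 0.055) in Stat5b-/- against Stat5a-/-.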
